A study of Sus scrofa with 36 samples.

Results

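Liver expression was compared between F1 pigs and Large White (LW) pigs that were both kept at thermoneutrality (TN, 24 °C). The comparison takes the 6 F1 arrays and the 6 LW arrays labelled with that temperature, 12 of the 36 arrays in the series. All animals were castrated growing male pigs that had never been exposed to heat in the trial and ate the same commercial diet ad libitum. LW is a European breed selected for fast lean growth, Créole (CR) is a local Caribbean breed, and the F1 pigs of the study are crosses of LW and Créole. Per the methods of the study, the pigs of a breed came from a few litters and were penned with their own breed, littermates in different pens. Whole pens were killed at each temperature, so the 6 animals of a group shared a few litters and pens. Animals of a breed killed at TN and those later exposed to heat came from the same litters. Litter, parents, pen and slaughter day are not in the labels. A difference between F1 and LW cannot be told apart from a difference between their pens or litters. The p-values for expression set the difference between these 12 animals against the spread between animals within groups, estimated over all 36 arrays. They treat animals as independent, which littermates and penmates are not. The other groups used here as references were 6 F1 and 6 LW pigs under heat stress (HS, labelled 30 °C, whereas the protocol gives 32 °C) and 6 CR pigs at TN.

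The liver is built mostly of hepatocytes, which make plasma proteins, bile acids and urea, oxidise fatty acids and clear foreign compounds with cytochrome P450 enzymes and conjugating enzymes. Between the hepatocyte plates lie sinusoids lined by endothelial cells and held by resident macrophages, stellate cells and passing leukocytes, all of which contribute RNA to a piece of whole liver. For nuclear genes outside the sex chromosomes, an F1 animal carries a copy from each parental breed, so its transcript levels are often set beside those of the parents. This does not hold for the mitochondrial genome, and the labels do not say which breed was the dam. In bulk tissue, fewer cells of a type and less RNA per cell cannot be told apart.

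The 9 hepatocyte markers examined, ALB and HNF4A among them, were well above background on all 12 arrays, and their summed signal differed by -0.03 on the log2 scale between F1 and LW. Between 39644 and 43123 of 60306 non-control spots were well above background on the 12 arrays. Neither this number, the median signal, the background nor the mean correlation with the own group separated F1 from LW in exact two-sided permutation tests (lowest Benjamini-Hochberg adjusted p over the 4 measures, 0.476), in which 6 against 6 animals allow no p below 0.00216. Arrays lay on 5 slides, and 4 of them held both groups.

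On the first principal component of all 36 arrays, which carried 18.6% of the variance, some animals stood away from their group. LW TN replicates 2 to 5 scored between -44.2 and -35.0, next to the 6 LW HS animals at -34.3 to -24.8, but LW TN replicates 1 and 6 scored -4.83 and -3.04. F1 TN animals spread from -1.31 to 28.3, except replicate 3 at -18.1, which also had the lowest mean correlation with its own group on the 12 arrays, 0.986. CR TN animals lay between 2.35 and 30.2. Among the F1 HS animals, replicates 1 and 2 scored -17.0 and -21.3 and the others between 14.65 and 36.89. In the sample titles the animal numbers run breed by breed, except that those of LW TN replicates 1 and 6 lie among the F1 numbers. The F1 numbers just below them belong to F1 HS replicates 1 and 2. Whether the breed labels of these animals are right was not tested, and all animals were kept under the breed in their labels. F1 minus LW therefore means animals labelled so. Calls at TN that were lost without the 3 TN animals that stood apart are named with their values.

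**Figure D1:**
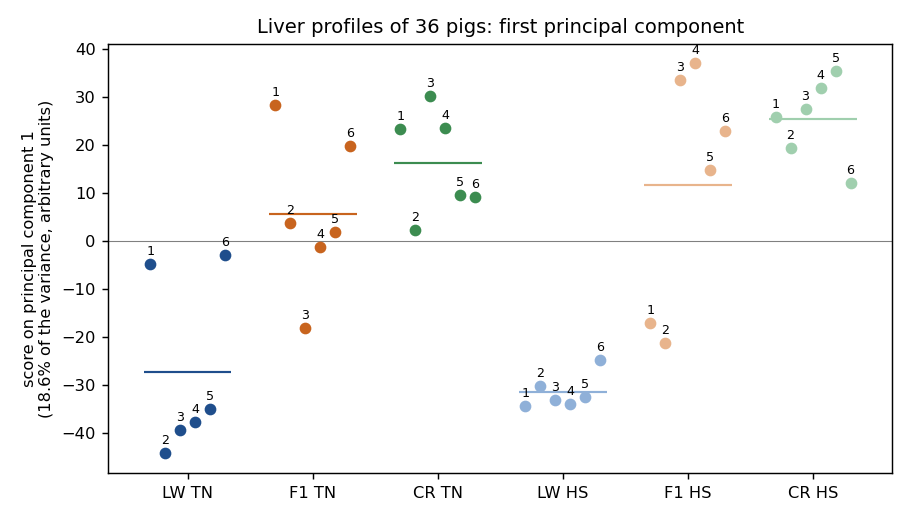
Score of each of the 36 pigs on the first principal component (vertical axis, arbitrary units), by breed and temperature. Numbers are replicate names and horizontal lines are group means. LW TN replicates 1 and 6 at -4.83 and -3.04 lie among the F1 TN animals rather than beside the other 4 LW TN animals, and F1 TN replicate 3 at -18.1 lies below the other F1 TN animals. F1 HS replicates 1 and 2, at -17.0 and -21.3, lie below the other F1 HS animals.

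At TN, 308 of 44796 probes differed between F1 and LW at an adjusted p-value under 0.05 (limma, Benjamini-Hochberg over all kept probes), 0.688% of those tested. Of these, 141 (0.315% of all tested) were higher in F1 and 167 (0.373%) were lower, while 7735 probes reached an unadjusted p under 0.05. The absolute difference of the 308 probes had a median of 0.56 on the log2 scale and started at 0.24, and 20 probes exceeded 1 log2 unit. Gene symbols were available for 161 of the 308 probes, which named 122 symbols, and 6 of the 20 largest differences had a symbol. Values of F1 and LW animals did not overlap for 152 of the 308 probes, against 548 of all 44796 (1.22%). The largest, 3.42, belonged to a probe with no gene name.

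With 1 probe per named gene, the brightest one, 67 of 11201 genes (0.598%) differed, 21 (0.187%) higher and 46 (0.411%) lower in F1. The named genes that were lower included receptors and signalling proteins of leukocytes (CXCR2, CD300C, DOK2, SAMSN1), MHC class I chains (SLA-1, SLA-6, B2M) and secreted matrix proteins (MGP, ASPN). Those that were higher included cytochrome P450 enzymes (CYP3A29, CYP3A46), the epoxide hydrolase EPHX2, enzymes and a carrier of amino acid breakdown (HPD, SLC25A15) and mitochondrial transcripts (ND5, ND6). In all, 55 genes are named by a rule given with the processing steps, and 33 of the 55 passed the threshold. For 17 of the 33 the 6 F1 and 6 LW animals did not overlap, a pattern found for 1.28% of all genes, and all 33 kept their sign within each of the 4 slides that held both groups. The genes were chosen on these same arrays and each slide held few of the animals, so neither count is a separate test.

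Among the genes that fell most in F1 were 6 with known roles in leukocytes. CXCR2, a chemokine receptor through which neutrophils are recruited, lay at 8.43, 8.63 and 9.11 (lowest, median and highest log2 signal) in LW and at 7.71, 7.85 and 8.28 in F1. All 6 F1 animals were below all 6 LW animals, and the mean difference of -0.79 ± 0.16 (SE, n = 6 and 6, adjusted p = 0.0146) is a level 1.73 times lower in F1. CD300C, an immunoglobulin-like receptor of myeloid cells, had a median of 9.74 and a lowest value of 9.19 in LW, and in F1 ranged from 8.50 to 9.24 around 8.61. Apart from F1 replicate 6, the brightest in its group, each F1 animal was below every LW animal (difference -0.96 ± 0.19, adjusted p = 0.0127).

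ADA2, an adenosine deaminase secreted mainly by monocytes and macrophages, ran from 10.52 through a median of 10.92 to 11.31 in LW and from 9.94 through 10.09 to 10.46 in F1, without overlap (difference -0.78 ± 0.15, adjusted p = 0.0115). CASP1, the protease that activates interleukin 1 beta, was between 8.80 and 10.02 in LW (median 9.43) and between 8.45 and 8.77 in F1 (median 8.60), again without overlap (difference -0.80 ± 0.20, adjusted p = 0.0464). F1 animals varied less here, with an SD of 0.13 against 0.47 in LW. SAMSN1, an adaptor protein of blood cells, had medians of 8.23 in LW and 7.30 in F1, and the ranges 7.53 to 8.51 and 6.70 to 7.68 overlapped (difference -0.80 ± 0.20, adjusted p = 0.0449). Its 4 probes gave differences between -0.80 and -0.12, all of the same sign, and 1 passed the threshold.

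DOK2, a docking protein downstream of tyrosine kinases in blood cells, spanned 10.96 to 11.66 in LW (median 11.43) and 10.18 to 11.21 in F1 (median 10.56), with a difference of -0.78 ± 0.17 (adjusted p = 0.0242). In this gene 5 of the 6 F1 animals lay below every LW animal. The 3 other DOK2 probes did not pass the threshold, and the highest of the 4 differences was 0.04.

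Markers of blood and sinusoidal cells also had lower means in F1. Among 5 neutrophil markers CXCR2 was called and all 5 had a lower mean in F1, where 0.411% of all genes were called lower. Their summed linear signal ran from 730 to 1890 intensity units in LW (median 1192) and from 527 to 752 in F1 (median 666). CXCR2, chosen above for its fall on these same arrays, is part of this sum, so the sum is not separate from that fall. The lowest LW value belonged to replicate 1, inside the F1 range, replicate 6 was at 982, and replicates 2, 3 and 4 held the highest values. Of 9 macrophage markers none passed the threshold by its brightest probe and 8 had a lower mean in F1. Examples, chosen after their values were seen, were differences of -0.70 ± 0.18 for CD163 (adjusted p = 0.0559), -0.70 ± 0.19 for C1QC (0.0595) and -0.60 ± 0.17 for VSIG4 (0.0692). A dimmer probe each of CD163 (-0.70, adjusted p = 0.0308) and VSIG4 (-0.65, 0.0409) did pass. The summed macrophage signal was 127876 to 153613 in LW and 99505 to 127678 in F1, so the groups narrowly failed to overlap. Single genes without overlap made up 1.28% of all genes. At HS the sums did overlap, at 128829 to 144518 in LW (median 132050) and 98309 to 148938 in F1 (median 132305). F1 HS replicates 1 and 2 held the highest F1 sums, 148938 and 146715. By gene, 6 of the 9 markers were called lower in F1 at HS, where 3.54% of all genes were. T and NK cell markers had a lower mean in F1 for 13 of 14 genes, endothelial markers for 9 of 11 and stellate cell and fibroblast markers for 10 of 12, with none called in the last 3 lists. Across all genes, 53.6% had a lower mean in F1. The part of cell composition in the falls of CXCR2, CD300C, ADA2, CASP1, SAMSN1 and DOK2 was not tested.

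Without LW TN replicates 1 and 6, more of these markers passed: 5 of 5 neutrophil, 6 of 9 macrophage, 6 of 14 T and NK cell and 4 of 11 endothelial markers were then lower in F1. In that fit 5.38% of all probes were called, 2.68% as lower in F1, against 0.688% and 0.373% with all animals. Both animals were set aside because their profiles stood apart, so these counts describe the other 10 animals and are not a separate test.

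MHC class I molecules display peptides of the cell interior to T cells and pair a heavy chain with B2M. SLA-1, a classical heavy chain gene (chr7:22824137-22920154 in Sscrofa11.1), had log2 signals of 17.61 to 18.06 in LW and 17.02 to 17.61 in F1, with medians of 17.83 and 17.32. The difference was -0.54 ± 0.13 (adjusted p = 0.0427), and the highest F1 value lay just below the lowest LW value. B2M, the light chain, was 16.86 to 17.32 in LW and 16.38 to 16.72 in F1 without overlap (difference -0.49 ± 0.12, adjusted p = 0.0415). All 9 kept B2M probes had lower means in F1, with differences from -0.70 to -0.39, and 4 passed the threshold.

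SLA-6, a non-classical heavy chain gene, was 6.66 to 8.10 in LW and 6.14 to 7.13 in F1 (difference -0.86 ± 0.21, adjusted p = 0.0428), and 3 of the 6 F1 animals lay below all LW animals. Class I genes are close copies of each other, so a probe can read more than 1 of them, and of 7 SLA-1 probes 1 passed the threshold while another had a difference of 0.15. In the list of MHC class I and antigen processing genes, 3 of 27 tested genes fell and none rose, against 0.411% and 0.187% of all genes. With slide as a fixed block none of the 27 was called (adjusted p of 0.0911 for SLA-1, 0.0746 for SLA-6 and 0.107 for B2M), nor with the log2 table of the authors or the 75th percentile scaling. The list had a median difference of -0.187 where all genes had -0.013. Class II genes, which antigen-presenting cells use, had a median of -0.347, the lowest of the 29 lists. Of 17 class II genes, 16 had a lower mean in F1, against 53.6% of all genes, but none passed. CTSS, the protease that trims the class II invariant chain, had the smallest p of these at -0.64 ± 0.16 (adjusted p = 0.0529), and 1 of its 12 probes passed.

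MGP, ASPN and TGM2, whose products lie in or act on the matrix, fell in F1, while none of 12 stellate cell and fibroblast markers was called. MGP, matrix Gla protein, which inhibits calcification of soft tissue (chr5:57665272-57669360), stood at 15.27, 15.69 and 15.85 (lowest, median, highest) in LW and at 14.53, 14.77 and 14.94 in F1. The groups did not overlap, and the difference of -0.85 ± 0.14 (adjusted p = 0.00251) corresponds to a level 1.80 times lower in F1. All 7 MGP probes passed the threshold, with differences from -0.85 to -0.69, and within the 4 shared slides F1 minus LW ran from -0.95 to -0.67. Leaving out any one of the 12 animals kept its adjusted p at or under 0.012.

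ASPN, asporin, a small leucine-rich proteoglycan, was 8.21 to 9.16 in LW and 7.43 to 8.14 in F1 (difference -0.89 ± 0.22, adjusted p = 0.0475), again without overlap. TGM2, the tissue transglutaminase that crosslinks matrix proteins, was 10.21 to 11.18 in LW and 9.01 to 10.34 in F1 (difference -1.10 ± 0.25, adjusted p = 0.0321). One F1 animal reached the LW range, and the second TGM2 probe gave 0.03. For the stellate cell and fibroblast markers the summed signal gave a log2 difference of -0.29 between F1 and LW, and the part of these cells in the falls of MGP, ASPN and TGM2 was not tested.

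HRH1, the histamine H1 receptor (chr13:67209261-67411174), had the largest fall among the named genes past the threshold. LW animals spread from 5.70 to 7.99 with a median of 7.31, whereas F1 animals had a median of 5.17 and reached from 5.00 to 7.15. The probe was well above background on 6 of 6 LW arrays and on 2 of 6 F1 arrays. Its difference was -1.65 ± 0.37 (adjusted p = 0.0284), and F1 replicate 5 at 7.15 lay within the LW range. With the processed signal scaled to the 75th percentile of each array the difference became -3.44 (adjusted p = 0.0414). Without LW TN replicates 1 and 6 and F1 TN replicate 3 it was -1.29 (adjusted p = 0.0581). CR TN animals were between 5.09 and 5.44, near the low F1 animals.

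TRIP6, an adaptor protein of focal adhesions, was 8.98 to 9.56 in LW and 7.67 to 9.36 in F1 (difference -0.96 ± 0.21, adjusted p = 0.0238), with more spread in F1 (SD 0.65) than in LW (SD 0.22). Among secreted hepatocyte proteins, C5, the complement component from which the anaphylatoxin C5a is cut, had medians of 16.00 in LW and 15.44 in F1 (difference -0.53 ± 0.11, adjusted p = 0.0237), and both its probes passed. C5 was the single gene called among 53 complement and coagulation genes, of which 45 had a lower mean in F1. Of all genes, 0.411% were called lower and 53.6% had a lower mean. RPS26, a protein of the small ribosomal subunit, fell by 0.31 ± 0.06 on the log2 scale (adjusted p = 0.0136) and was the single gene called among 72 cytosolic ribosomal proteins, 54 of which had a lower mean in F1. One of the 4 RPS26 probes passed, the probes ranged from -0.31 to 0.11, and copies of ribosomal protein genes elsewhere in the genome can share its signal.

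**Figure D2:**
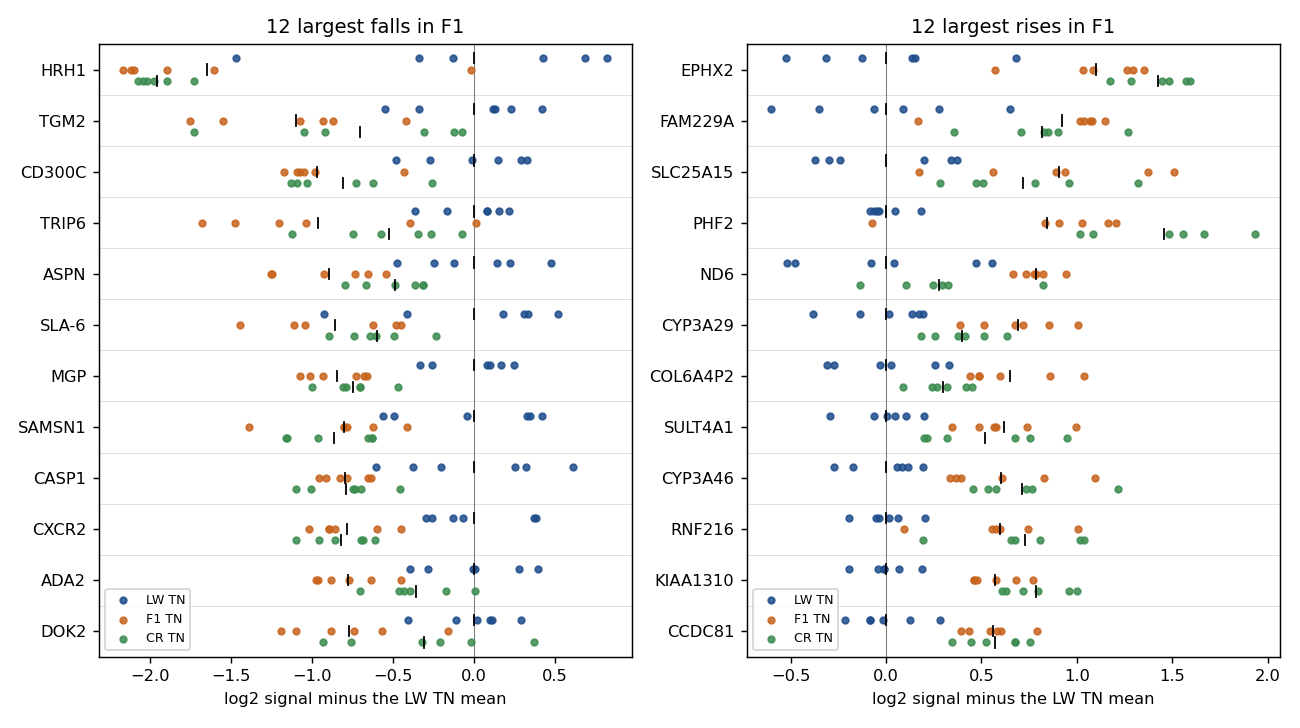
Log2 signal of each TN animal minus the LW TN mean of the gene (horizontal axis) for the 12 largest falls (left) and the 12 largest rises (right) in F1 among named genes past the threshold. Each point is 1 animal (6 per group), black ticks are group means, and CR TN animals are shown for reference. F1 and LW points are fully separate for MGP, CXCR2, ADA2, ASPN and CASP1 among the falls, and for HRH1 the F1 animal at 7.15 lies among the LW animals.

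EPHX2, CYP3A29, CYP3A46 and SULT4A1, members of enzyme families that act on foreign compounds or lipids, rose in F1. EPHX2, the soluble epoxide hydrolase, which opens epoxides of fatty acids (chr14:11217125-11293018), was 13.17, 13.70 and 14.38 (lowest, median, highest) in LW and 14.27, 14.87 and 15.05 in F1. All F1 animals but 1 were above all LW animals, with means of 14.80 in F1 and 13.70 in LW (SE of the difference 0.21, adjusted p = 0.0127). This is the largest rise among the named genes past the threshold, a signal 2.14 times higher at this probe. The 2 other EPHX2 probes were dimmer and had the opposite sign, the lowest at -0.21, and neither passed.

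CYP3A29 and CYP3A46 are neighbouring members of the CYP3A family, which oxidises steroids and many drugs (chr3:6738502-6778121 and chr3:6677911-6709855). CYP3A29 was 13.94 to 14.52 in LW and 14.71 to 15.33 in F1, a rise of 0.69 ± 0.16 (adjusted p = 0.0344) with no overlap, and all 3 of its probes passed. CYP3A46 was 15.80 to 16.27 in LW and 16.41 to 17.17 in F1, a rise of 0.60 ± 0.14 (adjusted p = 0.0358), also without overlap. All 5 CYP3A46 probes were higher in F1 and 1 passed. The sequences of the family are alike, so the probes can share signal. Without LW TN replicates 1 and 6 the adjusted p of CYP3A29 was 0.0553. These were the 2 genes called among 28 of the cytochrome P450 system, both higher, against 0.187% of all genes called higher and 0.411% lower. In this list 19 genes had a higher and 9 a lower mean in F1, with a median of 0.124. With slide as a fixed block 1 gene of the list was called and with the log2 table of the authors none. EPHX2 was counted in the list of conjugating enzymes, although it is a hydrolase, and was the single gene called of the 23 tested. Of these, 13 had a higher and 10 a lower mean. SULT4A1, described next, was not in that list.

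SULT4A1, a member of the cytosolic sulfotransferase family, was not well above background on any LW array and was so on 4 of 6 F1 arrays. With LW values raised to at least the lowest measurable signal of each array, the F1 mean was 1.37-fold higher. That mean includes the F1 arrays not well above background, so 1.37 is not a strict lower bound. The fitted difference was 0.62 ± 0.14 (adjusted p = 0.033). With the processed signal scaled to the 75th percentile it became 2.39 (adjusted p = 0.0243).

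In amino acid metabolism, SLC25A15, the ornithine carrier of the mitochondrial membrane that the urea cycle needs, was 11.64 to 12.38 in LW (median 11.99) and 12.18 to 13.52 in F1 (median 12.93). The difference was 0.91 ± 0.21 (adjusted p = 0.0327), and 1 F1 animal lay within the LW range. HPD, the dioxygenase of tyrosine breakdown, was 12.60 to 13.11 in LW and 13.09 to 13.63 in F1 (difference 0.48 ± 0.12, adjusted p = 0.0417), with 5 of 5 probes higher in F1 and 2 of them called. These 2 genes were called among 52 of the urea cycle and amino acid breakdown, against 0.187% of all genes called higher. In the list 33 genes had a higher and 19 a lower mean in F1, with a median of 0.122, and 1 gene was called with slide as a fixed block or with the log2 table of the authors.

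HADHA, the alpha subunit of the trifunctional protein of fatty acid oxidation, was 10.36 to 11.02 in LW and 10.88 to 11.62 in F1 (difference 0.49 ± 0.11, adjusted p = 0.0384). It was the single gene called among 41 of fatty acid oxidation and ketogenesis, against 0.187% of all genes called higher. Of the 41, 29 had a higher mean in F1 (median 0.083), where 53.6% of all genes had a lower one. Without LW TN replicates 1 and 6 its adjusted p was 0.0569. NR5A2, a nuclear receptor that regulates bile acid synthesis genes, was 10.51 to 10.96 in LW and 10.87 to 11.34 in F1 (difference 0.40 ± 0.10, adjusted p = 0.0472) and was the single gene called among 22 of bile acid synthesis and transport and among 31 liver transcription factors. Without LW TN replicates 1 and 6 and F1 TN replicate 3 the adjusted p was 0.0562 for NR5A2, 0.104 for HADHA and 0.0731 for CYP3A29.

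Transcripts of the mitochondrial genome had a higher mean in F1 in all 14 entries tested, ATP6 being present under 2 names, with a median of 0.245, the highest of the 29 lists. ND6 and ND5, subunits of respiratory complex I, passed the threshold. Of all genes, 0.187% were called higher and 53.6% had a lower mean in F1. ND6 was 14.74, 15.24 and 15.81 (lowest, median, highest) in LW and 15.92, 16.04 and 16.20 in F1, with no overlap and a difference of 0.79 ± 0.18 (adjusted p = 0.0308). The second ND6 probe, also tested, gave -0.23. ND5 was 14.64 to 15.41 in LW and 15.42 to 15.72 in F1, and its lowest F1 value barely exceeded the highest LW value (difference 0.50 ± 0.11, adjusted p = 0.0299). All 3 ND5 probes passed, at 0.50 to 0.62. ND5 (MT:12935-14755) and ND6 (MT:14739-15266) lie on opposite strands and overlap at their ends. Next were ND3 at 0.48 ± 0.12 (adjusted p = 0.0537) and ND2 at 0.49 ± 0.14 (0.0664), whereas COX1 and COX2 differed by 0.06 and 0.00, all 4 chosen after their values were seen. By dimmer probes ND1 (0.84 ± 0.19, adjusted p = 0.0284), ND3 (0.72 ± 0.18, 0.0485) and ND4 (0.48 ± 0.12, 0.0412) also passed. Nuclear-encoded respiratory chain genes had a median of -0.025, and none of the 74 passed.

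Other genes rose whose roles lie outside these groups. PHF2, a histone demethylase of the plant homeodomain family, was 7.18 to 7.45 in LW and had an F1 median of 8.23. F1 replicate 5 at 7.19 lay with LW and the other 5 F1 animals between 8.10 and 8.47 (difference 0.84 ± 0.20, adjusted p = 0.0382). CR TN animals were between 8.28 and 9.20, above all LW TN animals. FAM229A had a median of 10.61 and a highest value of 11.25 in LW and was 10.77 to 11.75 in F1 (difference 0.92 ± 0.19, adjusted p = 0.0211), and here too F1 replicate 5 was the lowest of its group, the other 5 lying between 11.62 and 11.75. RNF216, an E3 ubiquitin ligase, was 9.24 to 9.64 in LW and 9.53 to 10.44 in F1 (difference 0.60 ± 0.13, adjusted p = 0.0292).

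KIAA1310 (10.11 against 10.65 in median, difference 0.57 ± 0.10, adjusted p = 0.00381), COL6A4P2 (10.84 against 11.39, difference 0.65 ± 0.11, adjusted p = 0.00589) and CCDC81 (6.28 against 6.89, difference 0.56 ± 0.10, adjusted p = 0.00589) separated all F1 from all LW animals. Each of the 3 genes was called whichever of the 12 animals was left out.

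A further set of genes was chosen after their values were seen, because several of their probes passed or because their role belongs to a group above. In this set a called probe need not be the brightest of its gene, and probes that did not pass are not listed. TMSB4X, RAP1A, NCF4, PDGFC, BMPER and GGH were called by their brightest probe, whereas SLC7A2, LYZ, HSD17B4 and SLC39A14 were not. For the other genes of the set no call by the brightest probe is claimed. Several genes of the actin skeleton and of blood cells fell. TMSB4X, which binds actin monomers, fell at 4 probes, with a difference of -0.50 ± 0.09 at the one with the smallest p (adjusted p = 0.00697), and has many close copies. ARPC3, a subunit of the complex that branches actin filaments, differed by -0.44 ± 0.08 (0.0115) and ARPC4, of the same complex, by -0.53 ± 0.11 (0.0213). RAP1A, a small GTPase of cell adhesion, fell at 3 probes, the lowest p belonging to a difference of -0.75 ± 0.15 (0.0146).

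LYZ, the lysozyme of phagocytes, differed by -1.14 ± 0.26 and -1.08 ± 0.25 at its called probes (adjusted p = 0.0323 and 0.0337). NCF4, a subunit of the phagocyte oxidase, differed by -0.68 ± 0.14 (0.0235), LY96, the partner of the endotoxin receptor TLR4, by -0.53 ± 0.11 (0.023) and LAPTM5, a lysosomal protein of blood cells, by -0.54 ± 0.12 (0.0337). DPT, dermatopontin of the matrix, differed by -0.89 ± 0.21 (0.0415), PDGFC, a growth factor for mesenchymal cells, by -0.61 ± 0.13 (0.0241) and BMPER, a secreted modulator of BMP signalling, by -0.72 ± 0.15 (0.023).

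Metabolic genes went both ways. SLC7A2, a carrier of cationic amino acids, rose by 1.75 ± 0.37 at 1 probe (adjusted p = 0.0213) but was not called by its brightest. That difference is larger than the one of EPHX2, which was called by its brightest probe. HSD17B4, an enzyme of peroxisomal fatty acid oxidation, rose by 0.73 ± 0.16 (0.0238) at a dimmer probe and was not called by its brightest. BNIP3L, a receptor for the removal of mitochondria, rose by 0.73 ± 0.13 (0.0064). SLC39A14, a zinc and iron carrier, rose by 0.68 ± 0.16 (0.0384), likewise at a dimmer probe and not by its brightest. AKR1C1, an aldo-keto reductase with close copies, fell at 2 probes, with -0.75 ± 0.12 (0.00381) at the first. GGH, which trims folates, fell at 4 probes, with -0.44 ± 0.09 (0.0201) at the first.

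Of the 29 gene lists, 18 held no gene past the threshold, and 11 of the 12 marker lists did not either. The gene with the smallest p is given for some of these. LPIN1, which converts phosphatidic acid on the way to triglycerides and also acts on transcription in fasting, was 8.58 to 10.03 in LW and 10.09 to 12.60 in F1, without overlap (difference 1.48 ± 0.41, adjusted p = 0.0692). PER1 of the clock differed by 0.99 ± 0.32 (adjusted p = 0.115), MX2 of the interferon-stimulated genes by 0.65 ± 0.18 (0.0683) and MLXIPL, the transcription factor ChREBP of lipogenesis, by 0.45 ± 0.18 (0.194). In the list of interferon-stimulated genes, whose median was -0.252, 39 of 48 genes had a lower mean in F1, against 53.6% of all genes, whereas that of MX2 was higher. Acute phase and plasma carrier proteins had a median of -0.122, and heat shock proteins and co-chaperones of 0.002.

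Further genes were included by name and did not pass. HSPH1, a chaperone of the HSP110 family, differed by -0.02 ± 0.18 (adjusted p = 0.965), GPD1, a glycerol 3-phosphate dehydrogenase, by 0.14 ± 0.12 (0.558), and SERPINA7, thyroxine-binding globulin, by -0.31 ± 0.13 (0.211). HAMP, which encodes the iron hormone hepcidin, ranged from 7.20 to 13.79 in LW and from 7.31 to 12.24 in F1, and its difference of -0.77 ± 1.49 (0.834) was smaller than its error. In HSPH1 the sign turned when 1 of several animals or slides was left out.

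**Figure D3:**
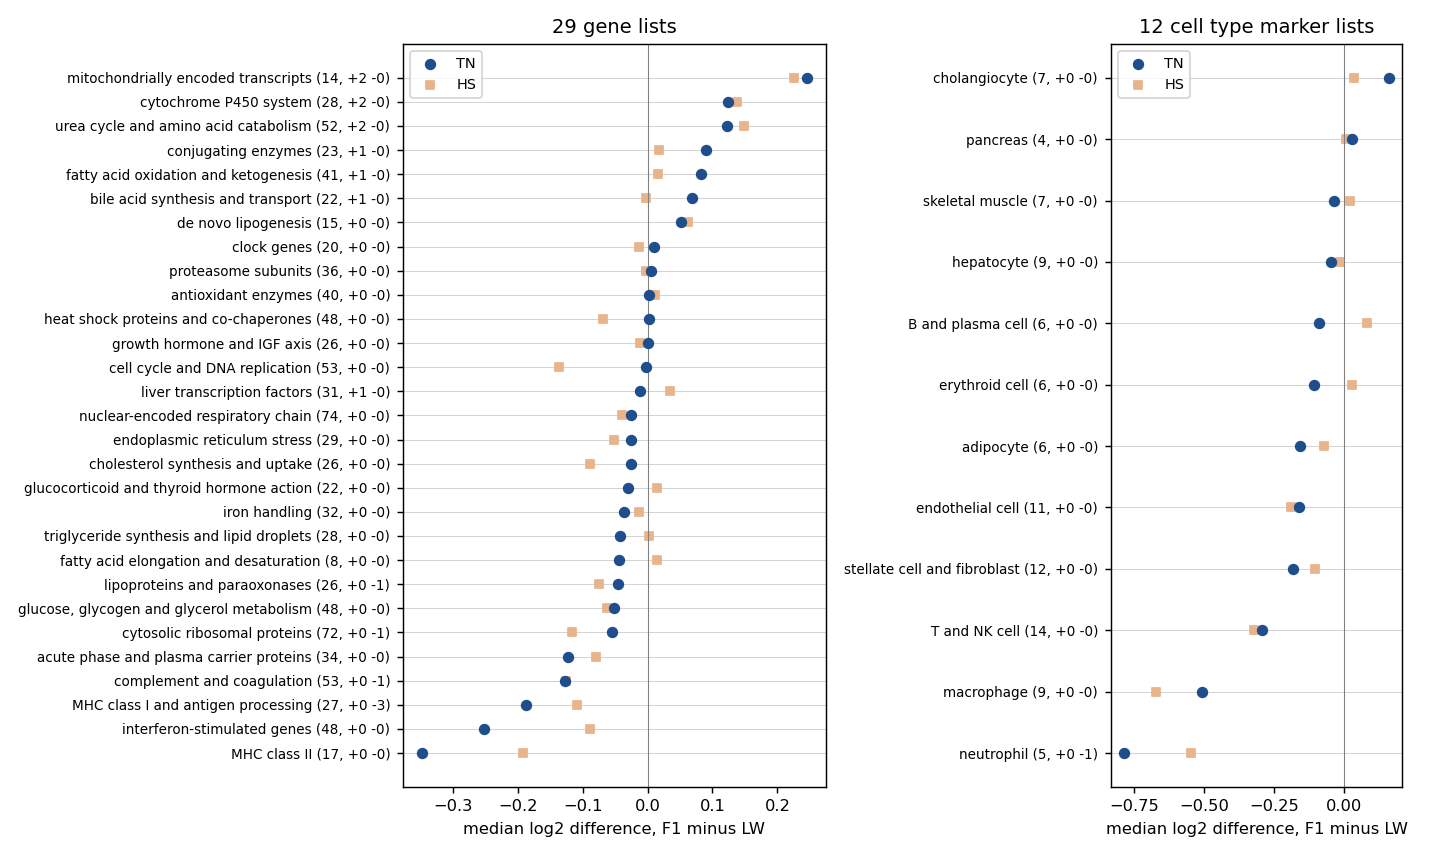
Median log2 difference of F1 minus LW (horizontal axis) for 29 gene lists and 12 cell type marker lists at TN (circles) and HS (squares). Brackets give the genes tested and how many were called higher (+) and lower (-) in F1 at TN. Mitochondrially encoded transcripts have the highest TN median of the gene lists, 0.245, and MHC class II the lowest, -0.347, while neutrophil and macrophage markers lie lowest among the marker lists.

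The same contrast was available in 12 other pigs under heat stress. These share no array with the TN comparison, but by the design of the study they came from the same litters as the TN pigs. The fit also uses 1 estimate of spread for both, so the HS values are not a test in other families. At HS, 2839 probes (6.34%) differed between F1 and LW, 2.91% of those tested being higher and 3.43% lower in F1. Without F1 HS replicate 1 there were 4970 calls at HS, and without F1 HS replicate 2 there were 5569. Of the 308 probes called at TN, 297 (96.4%) had the same sign at HS, where 68.9% of all probes did. Of these 308, 139 (45.1%) were called at HS in the same direction and 0 in the opposite direction, and these 139 made up 4.9% of the HS calls. By gene, 39 of 67 (58.2%) were called at HS in the same direction, where 675 of all genes (6.03%) were called, 2.49% higher and 3.54% lower. The median absolute difference of the 67 genes was 0.54 at TN, where they had been chosen, and 0.39 at HS.

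PHF2 was the clearest case, with LW HS animals at a median of 7.20 and F1 HS animals at 8.60 (difference 1.14 ± 0.20, adjusted p = 0.00348, no overlap). SLA-6 gave -1.12 ± 0.21 at HS (adjusted p = 0.0058) and ADA2 -0.71 ± 0.15 (0.0104), again without overlap. CXCR2 gave -0.77 ± 0.16 (0.00967), FAM229A 0.83 ± 0.19 (0.0154), HPD 0.59 ± 0.12 (0.00804), ND5 0.54 ± 0.11 (0.0104) and ND6 0.70 ± 0.18 (0.0218). Of the 33 named genes called at TN, 19 were called at HS in the same direction.

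A test of the difference between the temperatures called 0 of 44796 probes (0%) in limma, with 2004 at an unadjusted p under 0.05 and a smallest adjusted p of 0.574. Some named genes were far apart all the same. DOK2 was -0.78 ± 0.17 at TN and 0.43 ± 0.17 at HS, where F1 HS animals ran from 11.45 to 12.06 and LW HS animals from 11.11 to 11.51 (unadjusted p = 1.28e-05 for the difference between temperatures, adjusted p = 0.574). HADHA was 0.49 ± 0.11 at TN and -0.13 ± 0.11 at HS (unadjusted p = 5.47e-04, adjusted p = 0.978), and TRIP6 was -0.96 ± 0.21 and 0.03 ± 0.21 (unadjusted p = 0.00171, adjusted p = 0.978). C5 and CYP3A29 were at -0.10 ± 0.11 and 0.14 ± 0.16 at HS. For none of these genes was a difference between temperatures shown after adjustment.

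**Figure D4:**
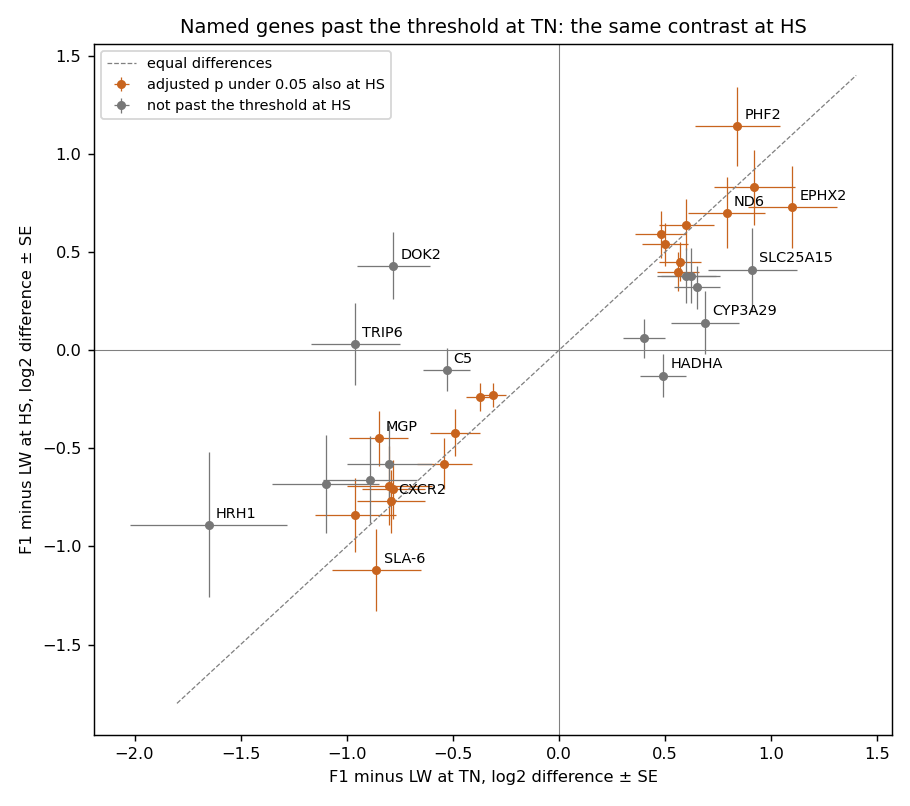
F1 minus LW at TN (horizontal axis) against F1 minus LW at HS (vertical axis), as log2 differences ± SE, for the 33 named genes past the threshold at TN. Orange genes also pass it at HS and grey ones do not, and the dashed line marks equal differences. Most genes have a smaller absolute difference at HS than at TN, where they were chosen. DOK2, at -0.78 and 0.43, TRIP6, HRH1 and HADHA lie farthest from the line.

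Levels of CR, the other parental breed, give a reference for the F1 values. F1 and CR at TN differed at 34 of 44796 probes (0.0759%, with 0.029% higher and 0.0469% lower in F1) and 12 of 11201 genes (0.107%, with 0.0536% in each direction). This comparison uses the same F1 animals as the one with LW. Means of LW, F1 and CR at TN were 13.70, 14.80 and 15.12 for EPHX2, 7.27, 8.11 and 8.72 for PHF2, and 15.60, 14.75 and 14.86 for MGP. For CXCR2 they were 8.73, 7.94 and 7.91, for SLA-1 17.84, 17.30 and 17.26, and for ND6 15.26, 16.04 and 15.53. None of these 6 genes passed the threshold between F1 and CR, the lowest adjusted p being 0.272 for PHF2, which does not show that their levels are equal. Of the 67 genes called between F1 and LW, 1 was also called between F1 and CR. This gene, LSM7, a protein of RNA decay and splicing complexes singled out here after its values were seen, had means of 12.88 in LW, 12.53 in F1 and 12.89 in CR (F1 minus LW -0.35 ± 0.07, adjusted p = 0.0211; F1 minus CR, adjusted p = 0.0317).

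The number of probes called depended on a few animals. Leaving out 1 of the 12 animals at a time gave between 72 calls, without LW TN replicate 4, and 843, without LW TN replicate 1. Without LW TN replicates 1 and 6 together there were 2410 calls, 294 of which were among the 308, and without these and F1 TN replicate 3 there were 3311, with 287 of the 308. Of the 33 named genes, 31 stayed past the threshold without LW TN replicates 1 and 6, and 29 without F1 TN replicate 3 as well, HRH1, NR5A2, CYP3A29 and HADHA being lost. With slide as a fixed block, 128 probes were called, 109 of them among the 308. FAM229A, PHF2, CYP3A29, SULT4A1, TGM2, ASPN, SLA-1, SLA-6, B2M, SAMSN1, CASP1, HADHA, NR5A2, HPD and C5 then missed the threshold, with adjusted p from 0.0504 for FAM229A to 0.125 for CASP1. With the log2 table of the authors, EPHX2, SLC25A15, ND6, COL6A4P2, KIAA1310, CCDC81, MGP, ADA2 and DOK2 stayed called. In all 12 fits that left out 1 animal, 9 of the 33 genes were called, EPHX2, COL6A4P2, KIAA1310, CCDC81, CD300C, MGP, ADA2 and RPS26 among them, and every one of the 33 was called in at least 3 of them. Without slide 3, and so without all animals on it, 2 of the 33 stayed called.

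**Figure D5:**
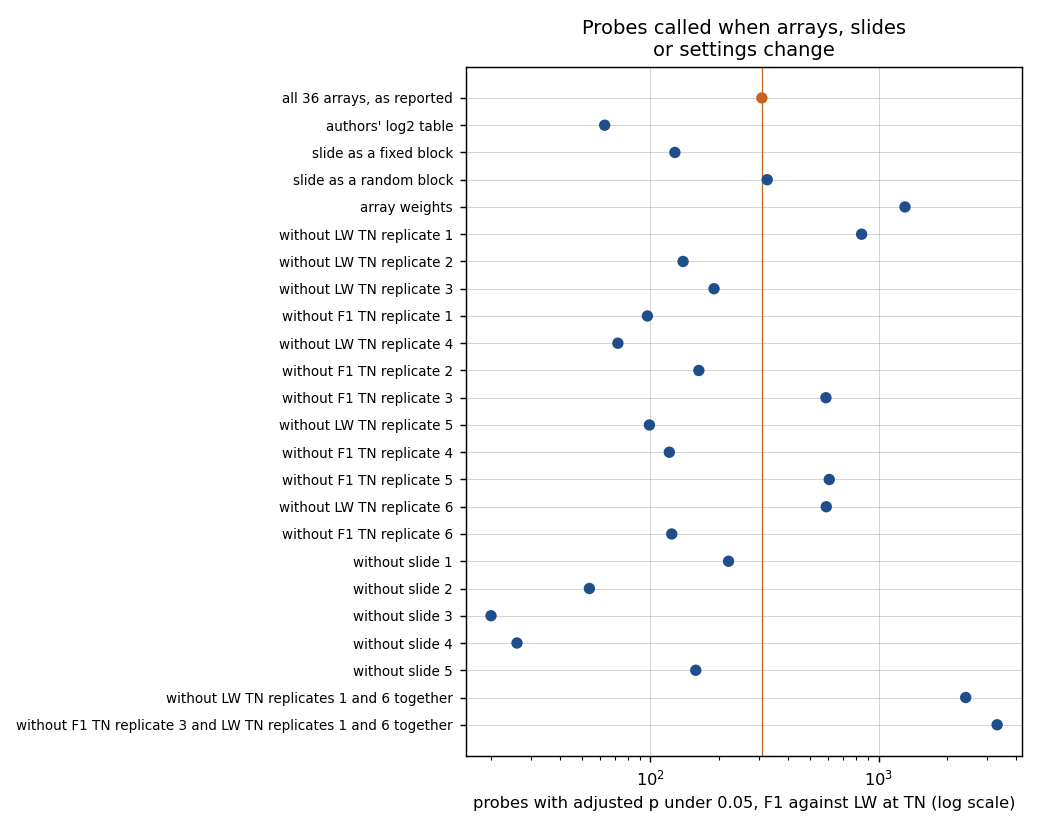
Number of probes with an adjusted p under 0.05 for F1 against LW at TN (horizontal axis, log scale) with all arrays (orange, 308) and when 1 animal, 1 slide, the animals that stood apart, or a setting is changed (blue). Counts run from 20 without slide 3 to 3311 without F1 TN replicate 3 and LW TN replicates 1 and 6.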

How the data were processed

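Liver RNA of 36 pigs was hybridised to 1-colour Agilent arrays. The authors deposited scanner tables from Agilent Feature Extraction 10.10.1.1 with spot intensity values, and a table of log2 values of 42051 probes. Its probe means ran only from 6.43 to 9.21, with column medians near 7.66, and it was taken to be centred per probe by an unknown method. After centring, its arrays correlated with those used here at 0.791 to 0.993. Groups came from sample titles, and replicate numbers only name animals. The log2 median signal was quantile normalized over 60306 non-control spots. The 107 non-uniform spots were set missing, and the filter asked for a spot flagged well above background on 6 or more of the 36 arrays (44796 of 60305 probes, 74.3%). Limma 3.58.1 in R 4.3.3 fitted a means model of 6 groups, with two-sided moderated tests and Benjamini-Hochberg adjustment over kept probes, tested on simulated data. SE is that of the difference. The number of arrays limits precision. No spot was saturated (0).

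Names came from the files and the RefSeq table of Sscrofa11.1, the source of coordinates: 32265 probes had none. Whether a probe reads the transcripts of all breeds alike was not tested, so a difference at a single probe is a difference in signal. The brightest probe on average that passed the filter stands for a gene. Named were, among genes past the threshold, the 12 that rose most and the 12 that fell most, up to 2 members each way with the smallest p from each of 29 gene lists, the member with the smallest p of a list with no call, and HAMP, HSPH1, GPD1 and SERPINA7. Symbols beginning with LOC or ENSSSC were left out, and 1 gene that the rule names is counted but not reported here. Where a group was not well above background on any array, its values were raised to at least the lowest signal well above background on each array. The fold given then used the unchanged mean of the other group. The comparison and the lists were chosen with earlier results of these data known. Alternatives changed the signal, scaling, background, filter, slide, weights, spread, samples and unit of test. Within slides, group means were subtracted.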

Additional observations from a re-analysis of the deposited data

Results flagged for a closer look

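In groups of 6 animals, a sample was singled out when its gap to the nearest other animal divided by the range of the group exceeded Dixon's critical value. This held in 8 of 118 groups examined, and chance gives about 1 in 20. In F1 TN, replicate 5 was apart for HRH1 (7.15 against 5.00 to 5.56 in the others, ratio 0.74), FAM229A (10.77 against 11.62 to 11.75, ratio 0.87) and PHF2 (7.19 against 8.10 to 8.47, ratio 0.71), each time on the side of LW. CD300C was highest in F1 TN replicate 6 (9.24 against 8.50 to 8.69, ratio 0.74). F1 TN replicate 3 was also apart in how closely its array matched the others of its group (mean correlation 0.986 against 0.9891 to 0.9909, ratio 0.63). In LW TN, replicate 6 was lowest for DNAJA4 (5.83 against 6.09 to 6.23, ratio 0.65) and for background (19 against 23 to 24 intensity units, ratio 0.80), and replicate 3 was highest for HSPH1 (9.58 against 8.26 to 8.71, ratio 0.66). The causes were not tested.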

How the results depend on the processing

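The 308 calls between F1 and LW at TN became 63 with the log2 table of the authors, 128 with slide as a fixed block, 1306 with array weights, 76 genes with 1 value per gene, 104 with the 12 arrays alone in the fit and 102 with quantile normalization over those 12. Without slides 2, 3, 4 and 5 they were 54, 20, 26 and 158, without LW TN replicates 1 and 6 together 2410, and without F1 TN replicate 3 as well 3311. Leaving out 1 animal gave 72 to 843. The 2839 calls at HS became 6220 with array weights, 717 genes with 1 value per gene, 5004, 1332, 8, 53 and 885 without slides 1 to 5, and 444 to 5569 without 1 animal. The comparison between temperatures stayed at 0 calls except 1 without slide 5. The 34 calls between F1 and CR became 8 genes with 1 value per gene, 12, 4 and 71 without slides 3, 4 and 5, 19 without F1 TN replicate 3 and LW TN replicates 1 and 6, and 20 to 73 without 1 animal. The causes were not tested. No named gene called at TN changed sign under the alternatives run, but 24 of the 33 lost the call with the log2 table of the authors and 15 with slide as a fixed block. Losses were larger when a slide was left out: 31 of the 33 without slide 3, 29 without slide 4 and 26 without slide 2. Signs turned in HAMP without slide 5 (0.50) and in HSPH1, which ran from -0.12 to 0.16 without 1 animal, with 1 value per gene (0.09), without LW TN replicate 3 (0.16), without F1 TN replicate 5 (0.10), and without slides 2 (0.16) and 5 (0.10), none of them called. No paired analysis was possible because replicate numbers only name the animals.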

Other observations

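Some genes of other groups had p-values just above the threshold at TN. CCND3, a D-type cyclin, was 11.51 to 11.68 in LW and 11.06 to 11.37 in F1, without overlap (difference -0.39 ± 0.11, limma adjusted p = 0.0666). GLRX, a glutaredoxin, differed by -0.59 ± 0.17 (0.0712), IGFBP7, a secreted binding protein of the IGF family, by -0.41 ± 0.11 (0.0659), and ENO3, the muscle enolase, by 0.63 ± 0.18 (0.0754). By chromosome, the called genes made up 2.23% of 179 genes on chromosome 16, where SELENOP, CCNG1, RARS and FAM105A were lower in F1, and 1.21% of 661 genes on chromosome 3, where CYP3A29, CYP3A46, HADHA, RNF216 and PHF2 were higher and TRIP6, ASPN and LCMT1 lower, against 0.598% of all genes. These shares were not tested.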
